A study of Mus musculus with 6 samples.

Results

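Primary mouse dermal fibroblasts with inducible Cre against Yap1 and Wwtr1, the genes of YAP and TAZ, had received the STING inhibitor H-151. Their messenger RNA was compared, gene by gene, with that of control fibroblasts. The comparison used 4 of the 6 libraries of the study, 2 of each of these groups, chosen by their column names in the deposited expression matrix, and all 13706 genes listed there. Control cells had the genotype Yap1 fl/fl; Wwtr1 fl/fl, without Cre. The treated cells, called KO + H-151 here, carried R26-CAG-CreER with the same floxed alleles and received 1 µM H-151, whereas the remaining group, KO, had that Cre genotype and no inhibitor. Every culture, controls included, was kept for 72 hr with 1 µM 4OH-Tamoxifen in DMEM-F12 with serum, and the promoter that drives the Cre (CAG, in the ROSA26 locus) is active in nearly all cell types. Against control, KO + H-151 therefore differs in active Cre, in YAP and TAZ and in the inhibitor at once. No group had H-151 without Cre, or active Cre without the floxed alleles, so their shares cannot be told apart.

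YAP (encoded by Yap1) and TAZ (encoded by Wwtr1) are transcriptional coactivators that bind TEAD factors at DNA and are held back by the Hippo kinases. In fibroblasts they are known for driving matrix, contractile and growth genes in response to mechanical load. STING is the adaptor that relays the sensing of cytosolic DNA by cGAS to the kinase TBK1 and the factor IRF3, which switch on type I interferon. Secreted interferon then acts through its receptor and a complex of transcription factors on interferon-stimulated genes. The question was what still sets the knockout cells apart from control once that interferon response is blocked.

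Libraries were made with QuantSeq, which reads the 3' ends of polyadenylated transcripts, and held 12444986 to 15308100 reads in the listed genes. The unit of level is scaled CPM, reads divided by an adjusted library size, and log2 changes, ± SE, are on the log2(scaled CPM + 1) scale, which understates the change of genes with low levels. Across genes, Spearman correlations were 0.995 between the control libraries and 0.994 between those of KO + H-151, and 0.98 to 0.983 from one group to the other. The summed level of 14 dermal fibroblast markers was 36989 and 37554 in control and 29844 and 28191 in KO + H-151. At an adjusted p under 0.05, 3 of them were higher than control (21.4%), 5 lower (35.7%) and 6 did not pass. Over all genes tested these shares were 11.5% higher and 11.4% lower. The markers' median log2 change was -0.095, and the highly expressed collagen genes Col1a1 and Col3a1 were among the lower ones. All 14 were detected in every library, at a summed level above that of each other cell type list examined. In bulk RNA, fewer cells of a type and less RNA per cell cannot be told apart. Whether replicate libraries came from separate cultures or animals is not in the labels, and p-values here reflect the spread between these libraries alone.

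At an adjusted p under 0.05, 1570 of 13648 genes tested were higher in KO + H-151 than in control (11.5%) and 1562 were lower (11.4%). Changes of at least 2-fold were seen in 253 of the higher genes (1.85% of all tested) and 168 of the lower ones (1.23%). On the log2(scaled CPM + 1) scale the largest fall was that of Wwtr1, by 5.59. The largest rise on it was that of Car3, a carbonic anhydrase of fat and muscle, by 2.37. Ratios of scaled reads, given below for genes with few reads, can order genes differently. By such ratios Fgf5 was lower in KO + H-151 by 110 (95% counting limits 30.2 and 918). The transcript of the locus that holds the Cre was higher by 28.2 (9.38 and 139). Both KO + H-151 libraries lay above both controls for 4029 genes (29.5%) and below both for 4020 (29.5%). Without control replicate 2 the counts were 964 higher and 936 lower. In the same fit KO differed from control in 2483 genes upward (18.2%) and 1938 downward (14.2%). KO + H-151 differed from KO in 2643 genes upward (19.4%) and 2923 downward (21.4%). These comparisons share libraries, so their values are only set beside each other below.

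**Figure D1:**
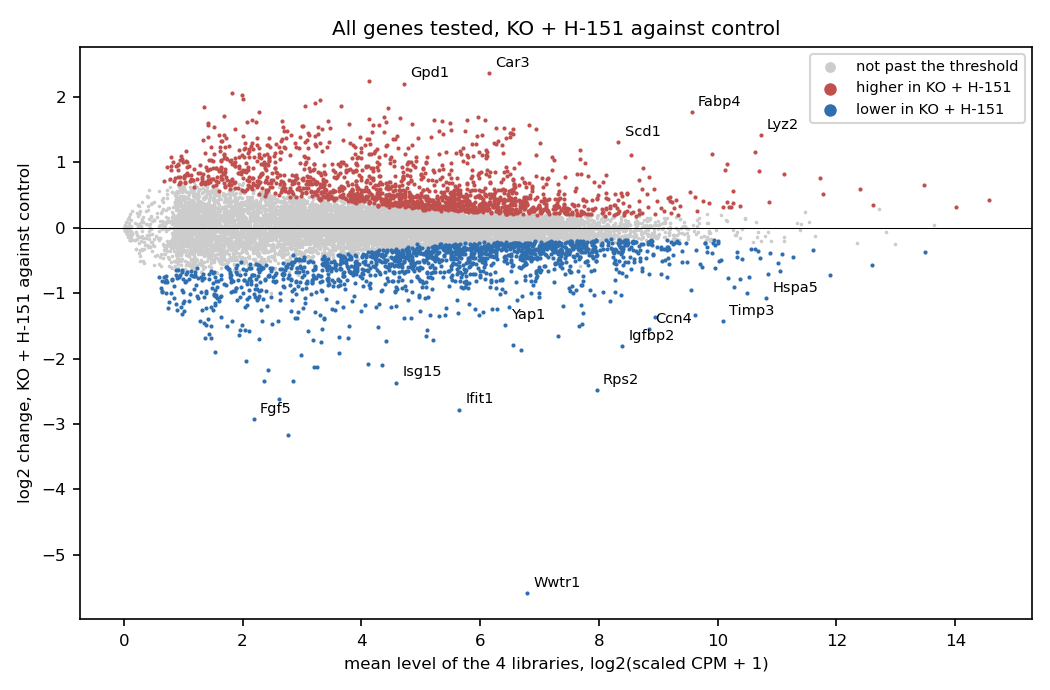
Each point is 1 of the genes tested; the x axis is the mean level of the 4 libraries on the log2(scaled CPM + 1) scale and the y axis the log2 change of KO + H-151 against control, with genes past the adjusted p threshold in red (higher) or blue (lower). Wwtr1 at -5.59 lies far below all others, while Car3 at 2.37 is the highest labelled gene.

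The plot of change against level shows both directions filled about equally. Gene lists were read against the shares over all genes, 11.5% higher and 11.4% lower with a median change of 0. A dagger (†) is set after a gene that no longer passed once some 1 of the 6 libraries was omitted, and genes in brackets after a small count were picked with their values known. Of 531 list members called, 184 were lost without some 1 library, 141 of them without control replicate 2, 100 without control replicate 1, 76 without KO + H-151 replicate 1 and 50 without KO + H-151 replicate 2.

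**Figure D2:**
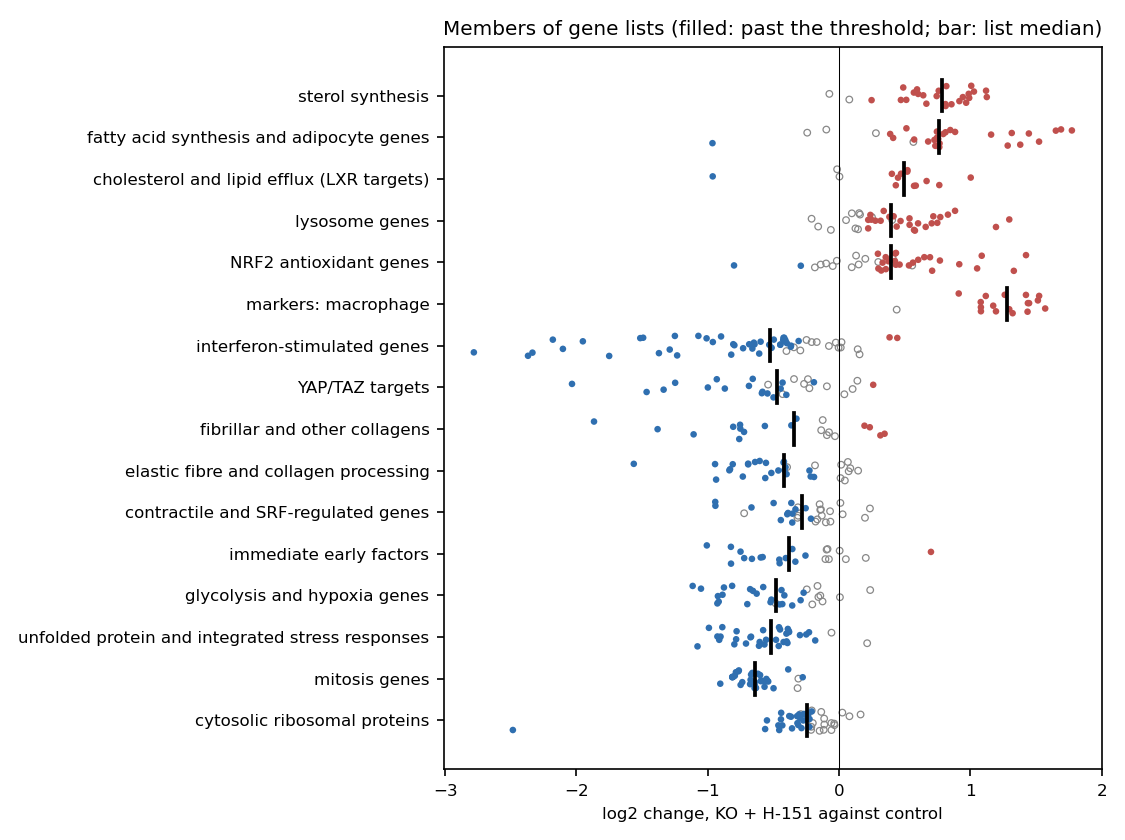
Each row is a gene list and each point 1 tested member; the x axis is the log2 change of KO + H-151 against control, filled points passed the threshold (red higher, blue lower) and the black bar is the list's median. The 10 lower rows, from interferon-stimulated to ribosomal protein genes, lie mostly left of 0, with medians from -0.64 (mitosis) to -0.24 (ribosomal proteins), and sterol, adipocyte, antioxidant, lysosome and macrophage genes mostly right of it.

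Both targets of the deletion were low. Wwtr1 (chromosome 3, 57455644 to 57575910, GRCm38) stood at 213 and 218 in control, 4.79 and 5.03 in KO and 3.07 and 4.00 in KO + H-151. Yap1 (7931999 to 8004638 on chromosome 9 of the same build) stood at 122 and 128 in control, 66.4 and 68.3 in KO and 45.3 and 42.4 in KO + H-151. Both transcripts were lower than control in every Cre-bearing library, and Yap1 was lower again with H-151 than without it. The change of Yap1 against control was -1.49 ± 0.08 (adjusted p = 1.93e-09) and against KO -0.61 ± 0.08 (adjusted p = 8.35e-06). Which exons are floxed is not in the labels, and tags at the 3' end, if it lies outside the deletion, check nothing, so the remaining Yap1 reads do not measure intact transcript. Gt(ROSA)26Sor, the transcript of the locus that holds the Cre, was counted 3 times in the control libraries together, against 65 reads in the KO libraries and 95 in those with H-151. After scaling, KO + H-151 exceeded control by a ratio of 28.2 (95% counting interval 9.38 to 139), and this gene was singled out with its values known.

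Interferon-stimulated genes, which encode antiviral effectors and the signalling proteins of interferon itself, were below their control level in KO + H-151. Of 56 tested members 41 were lower and 2 were higher (Slfn5 and Psmb9†), with a median of -0.52, and 15 fell at least 2-fold. In KO 54 of the same 56 were higher than control. Leaving out 1 library at a time gave 31 to 42 lower members. Most of the list thus stood far above control in KO and below it in KO + H-151, as the plot of interferon-stimulated genes by library shows.

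Ifit1, an RNA-binding antiviral protein, stood at 75.1 and 97.9 in control, 13399 and 13405 in KO and 15.2 and 8.82 in KO + H-151. All 3 groups were apart, and the change of KO + H-151 against control was -2.78 ± 0.16 (adjusted p = 6.07e-09). Isg15, a ubiquitin-like modifier that is attached to other proteins, stood at 42.2 and 36.2 in control, 1450.1 and 1502 in KO and 7.51 and 6.07 in KO + H-151. Its fall against control was larger than any spread between replicates, -2.37 ± 0.10 (adjusted p = 1.19e-10). Usp18, the protease that removes ISG15 and dampens the interferon receptor, stood at 7.19 and 8.50 in control and at 0.784 and 1.13 in KO + H-151 (-2.18 ± 0.13, adjusted p = 1.08e-08). Also among the 20 largest falls of all genes were Ifi44 (-2.33 ± 0.11), Rtp4, a chaperone for receptor transport (-2.10 ± 0.08), and Oasl2 (-1.95 ± 0.17).

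Irf7, which amplifies interferon production, stood at 10.3 and 9.44 in control, 186 and 193 in KO and 3.72 and 3.19 in KO + H-151 (-1.29 ± 0.12, adjusted p = 9.06e-07). Both treated libraries lay below both controls for this gene. Rsad2, which encodes viperin, stood at 4.27 and 8.72 in control and at 4.05 and 2.25 in KO + H-151. Its call (-0.82 ± 0.21, adjusted p = 0.00915) was lost without control replicate 2 (adjusted p = 0.172) and with DESeq2 (0.168), the 2 control libraries being unlike each other for this gene. Mx1, an antiviral GTPase outside the rule for named genes, was counted 11 times in control and 3 times with H-151 (scaled ratio 4.11, 95% counting limits 1.09 and 22.9). Ifnb1, which encodes interferon beta itself, had 0 reads in all 4 of these libraries, so no fold is given. Ifit, Oas and Mx genes have close relatives that can share reads, so the split within these families is uncertain.

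**Figure D3:**
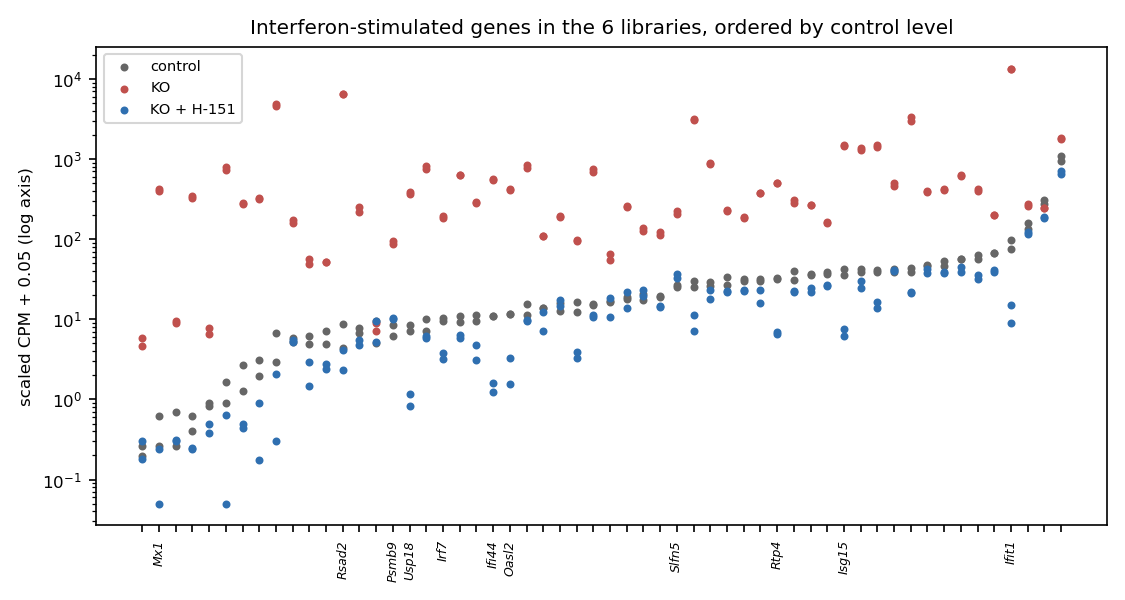
Levels of the interferon-stimulated genes tested, 1 column per gene ordered by control level, with the genes named in the text labelled, on a log axis of scaled CPM plus a small offset, with 1 point per library (grey control, red KO, blue KO + H-151). The KO points lie above for 54 of 56 genes, and the blue points of 41 genes lie below the grey ones past the test.

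Promoters of this list were searched because its members moved together. The core of the interferon-stimulated response element was spelled as GAAA, any 2 bases and GAAA, and looked for on both strands of the 250 bases before the start site (RefSeq, GRCm38.p6). It was present in 18 of the 40 members with a window (45%), against 3.27% of the windows of 10267 tested genes. The windows of 2 of the genes with the largest falls are printed 5' to 3' on the gene's strand, with matches in capitals, where Isg15 (chr4:156200819-156201068, minus strand) has overlapping matches and Ifit1 (chr19:34640639-34640888, plus strand) has 2 in reverse. A match is a description of letters, not evidence of binding.
Isg15: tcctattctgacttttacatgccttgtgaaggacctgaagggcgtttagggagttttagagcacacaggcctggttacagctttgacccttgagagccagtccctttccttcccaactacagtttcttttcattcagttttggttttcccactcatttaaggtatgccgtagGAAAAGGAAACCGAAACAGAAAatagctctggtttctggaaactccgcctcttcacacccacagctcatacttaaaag
Ifit1: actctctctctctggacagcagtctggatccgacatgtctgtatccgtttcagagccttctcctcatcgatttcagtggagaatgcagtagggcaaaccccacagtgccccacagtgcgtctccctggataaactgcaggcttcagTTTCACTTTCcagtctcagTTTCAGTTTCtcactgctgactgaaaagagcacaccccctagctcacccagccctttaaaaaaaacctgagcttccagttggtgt

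Of 18 tested genes of cGAS-STING and interferon signalling 2 were higher (Tyk2 and Rnaseh2b†) and 2 lower (Socs3 and Samhd1†), with a median of 0.06, shares of 11.1% each way that are near those of all genes. Cgas, the DNA sensor, stood at 11.0 and 9.01 in control and at 11.3 and 9.26 in KO + H-151 (0.04 ± 0.14, adjusted p = 0.883). Sting1, the target of H-151, stood at 37.0 and 34.7 in control and at 33.7 and 38.3 in KO + H-151 (0.00 ± 0.10, adjusted p = 0.992). The libraries of the 2 groups overlapped for both genes, which does not show that they are equal. Tyk2, a kinase of the interferon receptor, was higher by 0.59 ± 0.13 (adjusted p = 0.00292), and Socs3, a feedback inhibitor of cytokine receptors, changed by -0.53 ± 0.08 (adjusted p = 0.000178). Samhd1, which breaks down deoxynucleotides, changed by -0.28 ± 0.07 (adjusted p = 0.00875), a call lost without control replicate 1 (0.0898) or KO + H-151 replicate 2 (0.0546).

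Antigen presentation genes, many of them also interferon-inducible, did not as a list follow the interferon-stimulated genes downward. Of 16 tested members 6 were higher than control and 3 lower (the chaperones Calr, Pdia3† and Canx†), with a median of 0.15, and without control replicate 2 these counts were 2 and 1. H2-D1, a class I heavy chain, stood at 383 and 298 in control, 643 and 665 in KO and 538 and 479.7 in KO + H-151, above both controls (0.59 ± 0.09, adjusted p = 0.000236). B2m, the light chain, stood at 1742 and 1492 in control and at 1987 and 2243 in KO + H-151 (0.39 ± 0.09, adjusted p = 0.00355), a call lost without control replicate 2 (0.0902). Tap1, the peptide transporter, stood at 25.1 and 25 in control, 229 and 229 in KO and 30.2 and 26.5 in KO + H-151, and did not pass (0.17 ± 0.09, adjusted p = 0.177). H2 genes have near-identical relatives that can share reads, so the split between them is uncertain.

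Inflammatory factors were mixed. Of 31 NF-kB targets 9 were lower and 3 higher (Ccl8, Il1rn† and Tnfaip2†), with a median of -0.10. Without control replicate 1 the lower count was 4, and the higher count was 1 without control replicate 2 and 7 without KO + H-151 replicate 2. Il6, a cytokine of the acute phase, stood at 14.8 and 14.1 in control, 49.0 and 39.1 in KO and 2.48 and 2.63 in KO + H-151 (-2.12 ± 0.14, adjusted p = 3.58e-08). Ptgs2, the prostaglandin synthase COX-2, stood at 10.2 and 9.08 in control and at 2.88 and 3.31 in KO + H-151 (-1.38 ± 0.14, adjusted p = 3.94e-06). Ccl2, which attracts monocytes, stood at 102 and 101 in control and at 73.8 and 47.3 in KO + H-151 (-0.78 ± 0.13, adjusted p = 0.000373). All 3 lay below both controls with H-151 and above them in KO. Ccl8, another monocyte chemokine, went the other way, at 18.9 and 20.2 in control and 37.8 and 38.7 in KO + H-151 (0.93 ± 0.08, adjusted p = 7.84e-07). Cxcl12 did not pass (0.24 ± 0.08, adjusted p = 0.0572).

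Targets of YAP and TAZ were lower than control in KO + H-151. Of 28 tested members 17 were lower and 1 higher (Asap1†), with a median of -0.47, and leaving out 1 library gave 15 to 18 lower. In KO, 14 were lower and 7 higher. Ankrd1, an ankyrin-repeat protein of muscle and stressed fibroblasts, stood at 6.20 and 5.26 in control, 1.31 and 1.28 in KO and 0.719 and 0.563 in KO + H-151 (-2.03 ± 0.20, adjusted p = 2.36e-06). Ccn1, a matricellular protein, stood at 303 and 310.3 in control, 192 and 154 in KO and 105 and 117 in KO + H-151 (-1.47 ± 0.09, adjusted p = 1.08e-08). These targets formed a descending order, with KO + H-151 lowest.

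Ccn2, the related matricellular growth factor, stood at 1109.9 and 1135 in control, 1077 and 876 in KO and 360.1 and 547 in KO + H-151. Only the H-151 libraries passed the test against control (-1.34 ± 0.14, adjusted p = 2.59e-06, against -0.21 ± 0.14 and adjusted p = 0.265 for KO), and they also differed from KO directly (-1.13 ± 0.14, adjusted p = 4.59e-06). Axl, a receptor kinase, stood at 265 and 277 in control, 449.7 and 447 in KO and 194 and 208 in KO + H-151, so that KO lay above and KO + H-151 below control (-0.43 ± 0.06, adjusted p = 0.000146). Amotl2, a scaffold that restrains YAP, was at 249 and 253 in control, 97.5 and 98.9 in KO and 126 and 125 in KO + H-151. It differed from control by -1.0 ± 0.07 (adjusted p = 2.2e-08) but lay above KO. Ajuba, a LIM protein that inhibits the LATS kinases, stood at 24.2 and 23 in control, 9.40 and 10.2 in KO and 20.8 and 18.1 in KO + H-151, and its difference from control did not pass (-0.27 ± 0.13, adjusted p = 0.152). Ccdc80, a secreted matrix protein with the highest mean of the list, changed by -0.66 ± 0.07 (adjusted p = 7.26e-06).

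The hexamer GGAATG, which TEAD factors recognise, was present on either strand in the 250 bases before the start of 8 of the 20 targets with a window (40%), against 12.9% of all windows. Ankrd1 (chr19:36119845-36120094, minus strand) holds it 2 times and Ccn1 (chr3:145649986-145650235, minus strand) once, in reverse, shown in capitals for the targets with the largest falls.
Ankrd1: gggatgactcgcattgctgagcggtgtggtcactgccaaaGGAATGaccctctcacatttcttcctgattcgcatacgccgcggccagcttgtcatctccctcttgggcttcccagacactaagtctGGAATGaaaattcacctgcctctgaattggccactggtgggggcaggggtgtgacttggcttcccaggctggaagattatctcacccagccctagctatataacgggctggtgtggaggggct
Ccn1: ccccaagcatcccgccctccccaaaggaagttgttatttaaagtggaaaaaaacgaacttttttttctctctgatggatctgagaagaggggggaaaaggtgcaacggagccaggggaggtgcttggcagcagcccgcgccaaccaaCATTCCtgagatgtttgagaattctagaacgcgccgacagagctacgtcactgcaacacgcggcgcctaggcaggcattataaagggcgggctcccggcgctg

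Of 21 Hippo pathway and TEAD genes 7 were lower and 1 higher (Tead2†), with 4 lower without control replicate 1. Vgll3, a TEAD cofactor, stood at 275 and 297 in control, 139.7 and 133 in KO and 181 and 178 in KO + H-151 (-0.67 ± 0.07, adjusted p = 2.53e-06). Fat1, an atypical cadherin, stood at 214 and 225 in control and at 144 and 147 in KO + H-151 (-0.59 ± 0.07, adjusted p = 1.39e-05). Frmd6, an upstream activator of the pathway, changed by -0.58 ± 0.09 (adjusted p = 0.0002). The kinase gene Map4k4 did not pass (0.08 ± 0.07, adjusted p = 0.459).

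**Figure D4:**
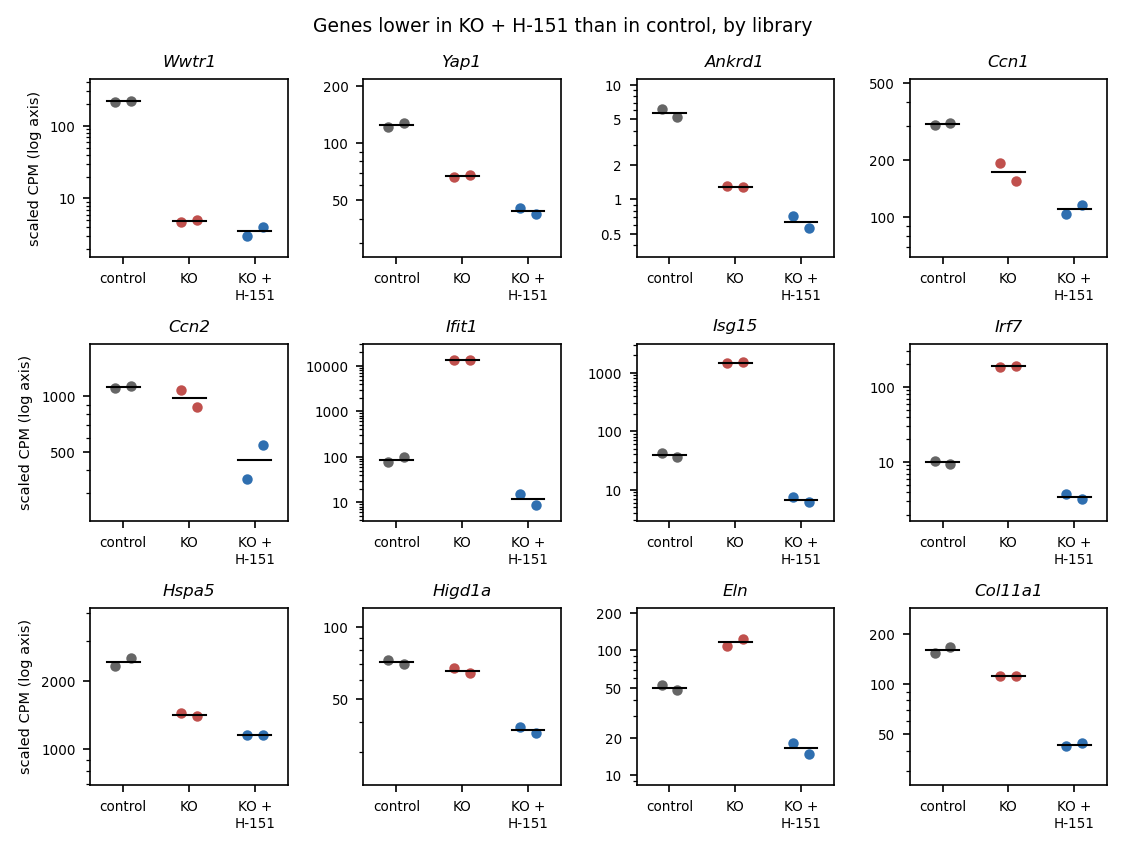
Levels by library of 12 genes lower in KO + H-151 than in control, in scaled CPM on log axes; points are libraries (grey control, red KO, blue KO + H-151) and lines are group means of 2 libraries. In every panel both blue points lie below both grey ones, while the red points lie above control for Ifit1, Isg15, Irf7 and Eln.

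Of 20 collagen chain genes 11 were lower and 4 higher (Col6a3, Col4a1†, Col4a2† and Col15a1†), with a median of -0.34, and the higher count was 1 without control replicate 2 or KO + H-151 replicate 1 and 2 without control replicate 1 or either KO replicate. In KO 13 were higher and 2 lower. Col11a1, a minor chain of the fibril core, stood at 154 and 168 in control, 113 and 112 in KO and 42.4 and 44.5 in KO + H-151 (-1.87 ± 0.07, adjusted p = 1.17e-10). Col3a1 stood at 4768 and 4644 in control, 4481 and 5286 in KO and 3131 and 2593 in KO + H-151 (-0.72 ± 0.10, adjusted p = 6.95e-05). Col1a1 stood at 7399.9 and 7418 in control, 8931 and 10020.0 in KO and 5177 and 4845 in KO + H-151 (-0.56 ± 0.09, adjusted p = 0.00031). For Col3a1 and Col1a1 both H-151 libraries lay below both controls, and they also lay below KO (-0.77 ± 0.10 for Col3a1 and -0.92 ± 0.09 for Col1a1). Col5a1, which sets fibril diameter, changed by -0.75 ± 0.06 and Col14a1 by -1.11 ± 0.09. Col1a2, with the highest level, changed by -0.36 ± 0.10 (adjusted p = 0.0155), a call lost without control replicate 1 (0.0530) or 2 (0.129).

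Elastic fibre and collagen processing genes fell more evenly, with 23 of 32 lower, 0 higher and a median of -0.42 (18 to 24 lower with 1 library left out, and 1 higher without KO + H-151 replicate 1). In KO 6 were lower and 6 higher. Eln, which encodes elastin, stood at 52.6 and 48.1 in control, 108 and 124 in KO and 18.1 and 14.8 in KO + H-151 (-1.56 ± 0.10, adjusted p = 2.87e-08). Fbln2, a fibulin of elastic fibres, stood at 946 and 1021 in control, 951 and 937 in KO and 472 and 552 in KO + H-151 (-0.94 ± 0.08, adjusted p = 2.26e-07). Both lay well below control with H-151, while KO was above control for Eln and within its range or just under it for Fbln2. Fbln5, which links elastin to cells, changed by -0.81 ± 0.06. The crosslinking oxidase Lox changed by -0.40 ± 0.08 (adjusted p = 0.00244), a call lost without the variance trend.

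Among 22 matrix proteases and inhibitors 8 were lower and 4 higher (Mmp11, Plau, Mmp12 and Mmp2†). Timp3, an inhibitor of metalloproteinases, stood at 1600.4 and 1563 in control, 1126 and 1159 in KO and 604 and 570.3 in KO + H-151 (-1.43 ± 0.07, adjusted p = 6.85e-10). Its level descended from control through KO to KO + H-151. Adamts1, a versican-cleaving protease, was instead lowest in KO, at 149 and 159, with 409.7 and 411 in control and 214 and 203 in KO + H-151 (-0.97 ± 0.07, adjusted p = 2.87e-08). The inhibitor Timp2 did not pass (0.09 ± 0.07, adjusted p = 0.454).

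Integrin and laminin genes counted 8 lower and 3 higher (Itga4†, Itgb3† and Nid2†) of 25, with 4 lower and 0 higher without control replicate 2 and 1 higher without control replicate 1 or KO + H-151 replicate 1. Itga11, a collagen receptor of fibroblasts, stood at 175 and 161 in control, 163 and 186 in KO and 84.4 and 82.4 in KO + H-151 (-1.0 ± 0.08, adjusted p = 1.2e-07). Only the H-151 libraries stood apart for this receptor. Itga1 changed by -0.55 ± 0.07 and Itga8 by -0.80 ± 0.16. The shared beta chain Itgb1 changed by -0.30 ± 0.07 (adjusted p = 0.00352), a call lost without control replicate 2 (0.0646).

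Contractile genes, targets of the serum response factor SRF and its actin-sensing cofactors, counted 13 lower and 0 higher of 30, with a median of -0.28 (9 to 18 lower with 1 library left out, 7 without the variance trend, and 1 higher without KO + H-151 replicate 1). Zyx, which encodes the focal adhesion protein zyxin, stood at 154 and 147 in control, 103 and 100.2 in KO and 87.4 and 102 in KO + H-151 (-0.67 ± 0.08, adjusted p = 1.34e-05). Cald1 (caldesmon) changed by -0.44 ± 0.07 and Tpm1 (tropomyosin) by -0.39 ± 0.07. These genes were lower in both Cre groups. The smooth muscle actin gene Acta2 stood at 3316 and 3646 in control and at 2459 and 3103 in KO + H-151 (-0.33 ± 0.10, adjusted p = 0.0248), a call lost without control replicate 2 (0.203) or KO + H-151 replicate 1 (0.207). Actb, a cytoplasmic actin, did not pass (-0.07 ± 0.10, adjusted p = 0.683) and took the other sign in a setting given in the closing section.

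Immediate early factors, transcription factors that growth factors and load induce within minutes, counted 14 lower (9 without the variance trend) and 1 higher (Atf3) of 22, with a median of -0.38. Klf4 stood at 124 and 118 in control, 324 and 333 in KO and 78.6 and 80.5 in KO + H-151 (-0.60 ± 0.07, adjusted p = 7.54e-06). Junb, an AP-1 subunit, stood at 69.6 and 65.4 in control, 129 and 124 in KO and 49.1 and 48.7 in KO + H-151 (-0.46 ± 0.08, adjusted p = 0.000328). For both, KO was above and KO + H-151 below control. Klf6 had the highest mean (-0.33 ± 0.07, adjusted p = 0.00136), with the call lost without the variance trend. Atf3, a stress-induced repressor, stood at 13.6 and 14.8 in control, 68.3 and 68.5 in KO and 22.1 and 25.3 in KO + H-151, and so remained above control (0.70 ± 0.11, adjusted p = 0.000144).

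Of 29 TGF-beta and BMP response genes 15 were lower and 4 higher (Id2, Bmp2, Grem1 and Tgfb1†), with a median of -0.29. Inhba, which encodes the activin A subunit, stood at 174 and 169.6 in control, 100.2 and 96.9 in KO and 80.4 and 82.7 in KO + H-151 (-1.07 ± 0.07, adjusted p = 2.01e-08). Id2, an inhibitor of helix-loop-helix factors, stood at 170.3 and 157 in control, 119 and 113 in KO and 275 and 293 in KO + H-151, so that KO was below and KO + H-151 above control (0.79 ± 0.07, adjusted p = 6.01e-07). Postn, the matrix protein periostin, stood at 1556 and 1619.7 in control, 2255 and 2479 in KO and 1197 and 1090.5 in KO + H-151 (-0.47 ± 0.08, adjusted p = 0.000244).

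Of 27 Wnt components and modulators 11 were lower (7 without the variance trend) and 3 higher (Dkk3, Lef1† and Wif1†). Sfrp2, a secreted Frizzled-related protein of dermal fibroblasts, stood at 114 and 104 in control, 63.5 and 76.1 in KO and 44.6 and 46.1 in KO + H-151 (-1.25 ± 0.09, adjusted p = 7.31e-08). Sfrp1 changed by -0.88 ± 0.07 and the R-spondin Rspo3 by -0.83 ± 0.08. All 3 descended from control through KO to KO + H-151. Dkk3, a divergent Dickkopf protein, stood at 264 and 253 in control, 331 and 332 in KO and 324 and 326 in KO + H-151 (0.33 ± 0.06, adjusted p = 0.00104).

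In the insulin-like growth factor axis 6 of 16 genes were lower and 1 higher (Igf1†). Igfbp2, a binding protein, stood at 498 and 544 in control, 202 and 199 in KO and 134 and 164 in KO + H-151 (-1.81 ± 0.08, adjusted p = 6.92e-10). Stc2, an inhibitor of the protease that frees IGF from its binding proteins, stood at 17.9 and 19.0 in control, 11.1 and 13.3 in KO and 5.23 and 3.31 in KO + H-151 (-1.91 ± 0.18, adjusted p = 1.01e-06). Igfbp3 stood at 15.7 and 15.3 in control, 36.0 and 41.6 in KO and 7.64 and 5.50 in KO + H-151 (-1.14 ± 0.15, adjusted p = 3.17e-05). Igfbp2 and Igfbp3 were thus both below control with H-151, while KO lay below control for the former and above it for the latter. Igfbp7 did not pass (0.13 ± 0.08, adjusted p = 0.319).

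Endoplasmic reticulum chaperones and genes of the integrated stress response, which adjust protein folding and amino acid supply, were lower almost throughout. Of 34 members 32 were lower, 0 were higher and 2 did not pass (Ddit4 and Sesn2), with a median of -0.52, and leaving out 1 library gave 24 to 31, with 1 higher without KO + H-151 replicate 1. In KO 18 were lower and 5 higher. Hspa5, the chaperone BiP, stood at 2339.6 and 2539.9 in control, 1448 and 1397 in KO and 1153 and 1155 in KO + H-151 (-1.08 ± 0.07, adjusted p = 2.26e-08). Hsp90b1, the chaperone GRP94, stood at 1761 and 2093 in control, 1073 and 1107 in KO and 945 and 986 in KO + H-151 (-0.99 ± 0.08, adjusted p = 2.03e-07). Manf, a secreted BiP partner, changed by -0.89 ± 0.09. The chaperones of both Cre groups were below control. The endoplasmic reticulum stress response element, to which ATF6 and NF-Y bind, spelled as CCAAT, any 9 bases and CCACG on either strand, was present in 6 of 29 promoter windows of this list (20.7%) and in 14 of all 10267 (0.136%). Hspa5 (chr2:34771840-34772089, plus strand, GRCm38.p6), with the highest level of the list, has a full match, in capitals.
Hspa5: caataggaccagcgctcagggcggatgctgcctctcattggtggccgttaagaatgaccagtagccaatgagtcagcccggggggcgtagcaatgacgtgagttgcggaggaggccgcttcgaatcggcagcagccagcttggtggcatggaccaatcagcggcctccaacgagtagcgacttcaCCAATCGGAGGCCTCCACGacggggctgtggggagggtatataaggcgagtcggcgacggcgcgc

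Glycolysis and hypoxia genes, many of them targets of the hypoxia-inducible factor HIF-1, counted 22 lower and 0 higher of 31, with a median of -0.48 (19 to 24 lower with 1 library left out). Higd1a, a mitochondrial hypoxia-induced protein, stood at 72.9 and 70.0 in control, 67.4 and 64.2 in KO and 38.2 and 36.0 in KO + H-151 (-0.93 ± 0.08, adjusted p = 5.6e-07). Pdk1, the kinase that diverts pyruvate from mitochondria, stood at 56.5 and 57.7 in control, 47.7 and 44.9 in KO and 30.3 and 30.5 in KO + H-151 (-0.89 ± 0.09, adjusted p = 1.72e-06). Ldha, lactate dehydrogenase, stood at 447 and 456 in control, 388 and 389 in KO and 288 and 296 in KO + H-151 (-0.63 ± 0.06, adjusted p = 1.8e-06). In each case the H-151 libraries were the lowest. Aldoa had the highest mean (-0.27 ± 0.07, adjusted p = 0.00753), a call lost without control replicate 2 (0.0548). The letters ACGTG, the hypoxia response element core, were present in 17 of 29 windows (58.6%), against 25.2% of all. Several glycolytic genes have processed copies in the genome that can share their reads, so their levels are uncertain.

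Genes of mitosis were lower in nearly all members. Of 34 tested 32 were lower and 0 higher, the others being Foxm1 and Nuf2, with a median of -0.64. That count was 19 without control replicate 2 and 20 without KO + H-151 replicate 1, though both KO + H-151 libraries lay below both controls for all 34 (29.5% of all genes did so). Prc1, which bundles the microtubules of the central spindle, stood at 92.9 and 92.1 in control, 78.0 and 69.8 in KO and 43.8 and 54.7 in KO + H-151 (-0.90 ± 0.10, adjusted p = 4.83e-06). Cdk1, the mitotic kinase, stood at 82.2 and 87.4 in control, 74.0 and 76.1 in KO and 47.3 and 50.3 in KO + H-151 (-0.79 ± 0.08, adjusted p = 2.2e-06). Both descended in that order. Cenpe, a kinetochore motor, was above control in KO, at 133 and 115, and below it in KO + H-151, at 43.1 and 54.4 against 75.0 and 79.3 (-0.66 ± 0.10, adjusted p = 0.000174). Top2a changed by -0.64 ± 0.12 (adjusted p = 0.00114), a call lost without the variance trend.

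DNA replication genes counted 15 lower and 1 higher (E2f1†) of 33, with 8 lower without control replicate 2 or KO + H-151 replicate 1. Dut, which removes dUTP, changed by -0.63 ± 0.09 and Hells, a chromatin remodeller, by -0.82 ± 0.12. Ccne1, cyclin E1, stood at 17.0 and 21.2 in control, 60.9 and 55.2 in KO and 12.2 and 11.6 in KO + H-151 (-0.64 ± 0.12, adjusted p = 0.00104). KO was therefore above control and KO + H-151 below it. Lig1, with the highest mean, changed by -0.33 ± 0.10 (adjusted p = 0.0248), a call lost without control replicate 1 (0.0798) or 2 (0.135) or KO + H-151 replicate 1 (0.179).

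Inhibitors of the cell cycle moved less uniformly. Cdkn1a (p21) stood at 754 and 796 in control and at 843 and 838 in KO + H-151 and did not pass (0.12 ± 0.07, adjusted p = 0.241), nor did Cdkn2a (0.33 ± 0.13, adjusted p = 0.0987). Cdkn1c (p57) stood at 19.6 and 16.7 in control, 11.3 and 14.1 in KO and 35.5 and 33.8 in KO + H-151 (0.90 ± 0.13, adjusted p = 9.46e-05). The H-151 libraries were the highest of the 3 groups for this inhibitor. The chromatin protein gene Hmgb2 changed by -0.81 ± 0.12 (adjusted p = 8.2e-05). Lmnb1, lamin B1, changed by -0.45 ± 0.14 (adjusted p = 0.0330), a call lost without control replicate 1 (0.0728) or 2 (0.195) or KO + H-151 replicate 1 (0.411) and with DESeq2 (0.0599).

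Of 31 p53 targets 7 were higher and 5 lower (Perp, Plk2, Ckap2, Fas† and Gtse1†), with 3 and 3 without control replicate 2, 4 and 3 without control replicate 1, and 3 lower without KO + H-151 replicate 2. Gdf15, a secreted stress factor, stood at 20.5 and 22.7 in control, 12 and 10.5 in KO and 37.0 and 46.9 in KO + H-151 (0.92 ± 0.13, adjusted p = 8.01e-05). Trp53inp1 changed by 0.48 ± 0.08 and Plk2 by -0.66 ± 0.09. The list as a whole was centred near 0, with a median of 0.07. Of 19 nuclear envelope and branched actin genes 3 were higher (Arpc1b†, Arpc3† and Sun2†) and 2 lower (Arpc5 and Tmpo†), with 1 and 1 without control replicate 1 or 2, and Actr2 did not pass (-0.01 ± 0.07, adjusted p = 0.948). Arpc5 changed by -0.38 ± 0.07 (adjusted p = 0.000853). Arpc1b changed by 0.32 ± 0.07, a call lost without control replicate 2 (adjusted p = 0.112), and Arpc3 by 0.31 ± 0.09, a call lost without control replicate 1 (0.130) or 2 (0.0604) or KO + H-151 replicate 2 (0.241).

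Cytosolic ribosomal protein genes counted 25 lower and 0 higher of 42, with a median of -0.24. That count was 14 without control replicate 1 and 5 without the variance trend, and 3 members were higher without KO + H-151 replicate 1. Rps2 stood at 419 and 427 in control, 96.9 and 100.3 in KO and 76.8 and 72.8 in KO + H-151 (-2.48 ± 0.07, adjusted p = 6.91e-13). It stood far from the other members, of which Rps16 changed by -0.55 ± 0.07 and Rplp1 by -0.21 ± 0.07 (adjusted p = 0.0562). These genes have many processed copies that can share reads. Nuclear subunits of oxidative phosphorylation counted 5 higher (Cox5a†, Cox7a2†, Ndufb8†, Cycs† and Cox4i1†) and 0 lower of 33, a share of 15.2% against 11.5% of all genes, with 1 higher without control replicate 2 and 3 without control replicate 1. The changes were 0.27 ± 0.06 for Cox5a, 0.25 ± 0.07 for Cox7a2 and 0.30 ± 0.07 for Ndufb8, and without control replicate 2 their adjusted p were 0.0844, 0.163 and 0.0784. Cox6a1 did not pass (-0.12 ± 0.06, adjusted p = 0.184).

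Markers of other cells were examined before the genes that were higher. Macrophage markers counted 17 higher and 0 lower of 18 tested, with a median of 1.28, and only Cd14 did not pass. Their summed level was 1680 and 1445 in control, 1794 and 1788 in KO and 4474 and 3658 in KO + H-151, and no marker was at 0 in any library. Lyz2, a lysozyme, stood at 995 and 841 in control, 1042 and 1044 in KO and 2740.0 and 2199 in KO + H-151 (1.42 ± 0.10, adjusted p = 3.26e-08). Tyrobp, the adaptor DAP12 of myeloid receptors, stood at 39.9 and 38 in control, 43.8 and 41.5 in KO and 117 and 111 in KO + H-151 (1.52 ± 0.08, adjusted p = 2.61e-09). Fcer1g, an Fc receptor chain, stood at 52.0 and 43.9 in control, 55.7 and 65.2 in KO and 148 and 129 in KO + H-151 (1.51 ± 0.10, adjusted p = 2.53e-08). KO lay near control for these genes and only the H-151 libraries were high. The part of macrophage RNA in the rises described next was not tested. With 1 library left out 16 or 17 markers were higher.

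Myeloid genes were also among the 20 largest rises. Cd300a, an inhibitory receptor of myeloid cells, stood at 2.49 and 3.60 in control and at 12.6 and 16.8 in KO + H-151 (1.96 ± 0.20, adjusted p = 2.82e-06). Slc11a1, a metal transporter of phagosomes, stood at 4.42 and 4.47 in control and at 16.7 and 21.1 in KO + H-151 (1.86 ± 0.16, adjusted p = 4e-07). Slc40a1, the iron exporter ferroportin, stood at 25.7 and 25.4 in control and at 87.3 and 77.9 in KO + H-151 (1.65 ± 0.10, adjusted p = 8.21e-09). For each of these genes both treated libraries were above both controls. The leukotriene cofactor Alox5ap (1.68 ± 0.13), the prostaglandin D synthase Hpgds (1.84 ± 0.17), the lipid hydrolase Pla2g7 (1.67 ± 0.16) and the chemokine Ccl4 (1.64 ± 0.15) were in the same group. Ccl4 was higher still in KO, at 60.4 and 64.6 against 9.21 and 8.07 in KO + H-151.

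Complement genes counted 8 higher and 4 lower (C3, Cd55†, Masp1† and Serping1†) of 16, with 2 lower without control replicate 1 or 2. The C1q chains C1qa, C1qb and C1qc, which are among the macrophage markers, changed by 1.45 ± 0.12, 1.26 ± 0.09 and 1.44 ± 0.16. Serping1, the C1 inhibitor, went the other way (-0.38 ± 0.09, adjusted p = 0.00653), a call lost without control replicate 1 (0.118). Endothelial markers counted 1 lower (Emcn†) of 8, and pericyte markers 3 lower (Mcam, Cnn1 and Notch3†) of 7, the latter a share of 42.9% against 11.4% of all genes. Few markers of the remaining types were high enough to test. Of 2 keratinocyte markers none passed, of 3 muscle markers 1 was higher (Acta1†) and 1 lower (Tnnt2†), and of 3 T and mast cell markers 1 was higher (Cd4) and 1 lower (Trac†).

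Markers shared by melanocytes and Schwann cells, both of the neural crest, split, with 4 lower (among them Foxd3, Sox10 and Ngfr) and 4 higher (Mlana, Mitf, Mbp† and S100b) of 10. Foxd3, a neural crest factor, stood at 7.33 and 7.93 in control, 14.5 and 15.2 in KO and 0.719 and 0.688 in KO + H-151 (-2.34 ± 0.17, adjusted p = 7.36e-08). Sox10 stood at 15.2 and 10.8 in control, 42.3 and 47.9 in KO and 3.46 and 2.94 in KO + H-151 (-1.72 ± 0.16, adjusted p = 1.06e-06). Ngfr, the p75 neurotrophin receptor, stood at 51.6 and 50.0 in control, 188 and 210.0 in KO and 15.9 and 14.8 in KO + H-151 (-1.66 ± 0.09, adjusted p = 1.96e-09). All 3 were above control in KO and below it with H-151. Gap43, a growth cone protein also made by immature Schwann cells, had the same order, at 27.3 and 26.8 in control, 128 and 129 in KO and 5.29 and 5.94 in KO + H-151 (-2.09 ± 0.10, adjusted p = 9.36e-10). Whether the number of such cells differed was not tested.

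**Figure D5:**
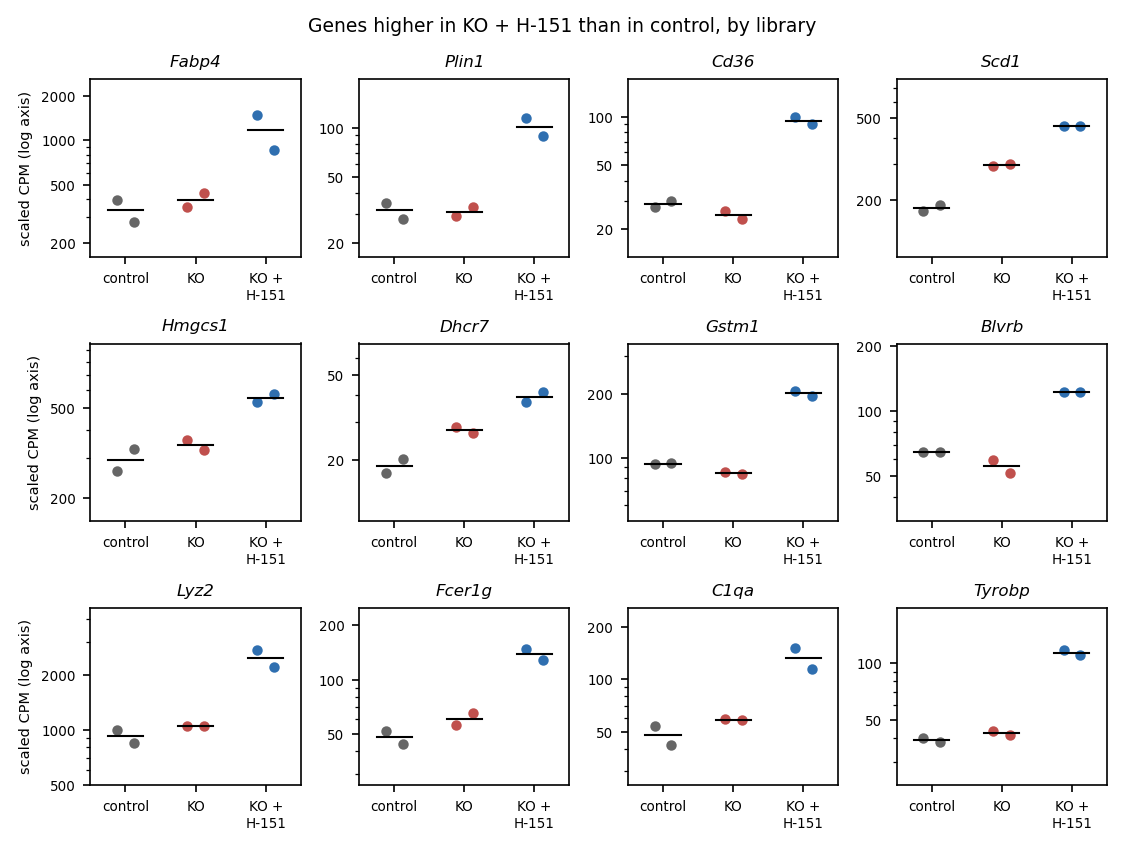
Levels by library of 12 genes higher in KO + H-151 than in control, in scaled CPM on log axes; points are libraries (grey control, red KO, blue KO + H-151) and lines are group means of 2 libraries. Both blue points lie above both grey ones in every panel, and the KO points of Plin1, Cd36, Gstm1 and Blvrb lie within or below the control range.

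Sterol synthesis, the pathway from acetyl-CoA to cholesterol that SREBP2 controls, was higher as a block. Of 26 members 24 were higher and 0 lower, with a median of 0.78, and leaving out 1 library gave 20 to 24. In KO 13 were higher and 0 lower. Hmgcs1, the first committed enzyme, stood at 263 and 329 in control, 360.5 and 326 in KO and 533 and 580.2 in KO + H-151 (0.92 ± 0.09, adjusted p = 2e-06). Msmo1, a sterol demethylation enzyme, stood at 133 and 157 in control, 188 and 177 in KO and 265 and 313 in KO + H-151 (0.99 ± 0.09, adjusted p = 6.89e-07). Dhcr7, which makes cholesterol from its last precursor, stood at 17.4 and 20.3 in control, 28.4 and 26.7 in KO and 37.1 and 41.7 in KO + H-151 (1.03 ± 0.11, adjusted p = 5.51e-06). All 3 were highest with H-151, with KO between the groups or next to control. No member of this list is among the macrophage markers, which follows from how the lists were drawn up. The part of macrophage RNA in this rise was not tested. One spelling of the sterol regulatory element, TCACNCCAC on either strand, was present in 1 of 18 windows of the list (5.56%), against 1.2% of all, and that window, of Hmgcs1 (chr13:119690101-119690350, plus strand, GRCm38.p6), is shown because the enzyme heads the pathway.
Hmgcs1: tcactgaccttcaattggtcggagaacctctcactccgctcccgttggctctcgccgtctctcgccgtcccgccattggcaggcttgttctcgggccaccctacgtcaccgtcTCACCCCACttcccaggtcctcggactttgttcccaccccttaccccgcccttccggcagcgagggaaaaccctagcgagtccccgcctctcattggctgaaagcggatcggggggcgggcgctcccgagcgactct

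Fatty acid synthesis and adipocyte genes counted 25 higher and 1 lower (Cebpd) of 30, with a median of 0.76, and 23 to 26 with 1 library left out. In KO 8 were higher and 9 lower. Scd1, which desaturates stearate, stood at 177 and 189 in control, 292 and 298 in KO and 457 and 456 in KO + H-151 (1.32 ± 0.06, adjusted p = 9.01e-10). Lpl, lipoprotein lipase, stood at 1036 and 926 in control, 729 and 812 in KO and 2403 and 1991 in KO + H-151 (1.16 ± 0.09, adjusted p = 1.41e-07). Fabp4, a fatty acid carrier of adipocytes and macrophages, stood at 394 and 278 in control, 351 and 439 in KO and 1496 and 858 in KO + H-151 (1.77 ± 0.19, adjusted p = 4.39e-06). Every KO + H-151 value exceeded every value of both other groups for these 3 genes, although the treated replicates of Fabp4 were far apart.

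Plin1, a coat protein of lipid droplets, stood at 35.0 and 28.1 in control, 29.1 and 32.9 in KO and 114 and 88.9 in KO + H-151 (1.65 ± 0.12, adjusted p = 7.74e-08). Cd36, a fatty acid receptor that macrophages carry too, stood at 27.4 and 29.8 in control, 25.8 and 22.9 in KO and 99.2 and 89.9 in KO + H-151 (1.69 ± 0.10, adjusted p = 6.24e-09). Agpat2, an enzyme of triglyceride synthesis, changed by 1.52 ± 0.09 (adjusted p = 6.35e-09). KO lay close to control for these 3 genes. Car3 stood at 24.9 and 17.9 in control and at 153 and 83.7 in KO + H-151 (2.37 ± 0.20, adjusted p = 2.81e-07), the largest rise of the rule. Gpd1, which makes the glycerol backbone of fats, stood at 8.69 and 7.57 in control, 12.9 and 13.4 in KO and 53.1 and 31.6 in KO + H-151 (2.20 ± 0.18, adjusted p = 2.36e-07). Adig, adipogenin, changed by 1.64 ± 0.25 (adjusted p = 0.000138). KO + H-151 replicate 1 lay above replicate 2 for Car3, Gpd1, Fabp4 and Plin1, and for Lyz2 and the summed macrophage markers. The myeloid genes Cd300a and Slc11a1 had the reverse order, and Scd1 was nearly equal in both replicates. These genes were picked with their values known, and Lyz2 is itself part of the marker sum. The order of 2 replicates therefore does not tell the source of the RNA. The part of macrophage RNA in the result was not tested.

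Of 14 genes of cholesterol and lipid efflux 11 were higher and 1 lower (Ch25h), with a median of 0.50. The list holds targets of the sterol-sensing receptor LXR, the LXR genes Nr1h2 and Nr1h3, and other lipid genes. Npc2, which moves cholesterol out of lysosomes, stood at 999 and 959 in control, 1475 and 1442 in KO and 1404 and 1507 in KO + H-151 (0.57 ± 0.07, adjusted p = 1.57e-05). Scarb1, a lipoprotein receptor, stood at 30.6 and 40.3 in control, 39.8 and 38.8 in KO and 56.1 and 64.8 in KO + H-151 (0.76 ± 0.11, adjusted p = 0.000147). Npc2 was above control in both Cre groups, whereas the KO libraries of Scarb1 lay within the control range. Ch25h, a hydroxylase that interferon induces, stood at 27.1 and 23.9 in control, 211 and 212 in KO and 14.5 and 10.9 in KO + H-151 (-0.96 ± 0.11, adjusted p = 1.43e-05).

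Lysosome genes counted 25 higher and 0 lower of 36, with a median of 0.39 (19 to 24 with 1 library left out, 16 without the variance trend). In KO 18 were higher and 1 lower. Ctsb, a cathepsin, stood at 832 and 744 in control, 939.7 and 975 in KO and 1497 and 1408 in KO + H-151 (0.88 ± 0.07, adjusted p = 2.28e-07). Cd68 and Ctss, the 2 members that are also macrophage markers, changed by 1.30 ± 0.10 and 1.19 ± 0.08. These 2 are among its 25 higher members. Names shared between lists do not measure the part of macrophage RNA in this list, which was not tested. Cd63, with the highest mean, stood at 2724 and 2593 in control and at 2640.2 and 2879 in KO + H-151 and did not pass (0.05 ± 0.08, adjusted p = 0.686).

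NRF2 antioxidant genes, which make glutathione-dependent enzymes and store iron, counted 24 higher and 2 lower (Slc7a11 and Ugdh†) of 38, with a median of 0.39. Leaving out 1 library gave 19 to 21, and the fit without the variance trend gave 14. In KO 9 were higher and 4 lower. Gstm1, a glutathione transferase, stood at 93.6 and 94.1 in control, 85.8 and 84.1 in KO and 206 and 195 in KO + H-151 (1.09 ± 0.07, adjusted p = 1.57e-08). Fth1, the heavy chain of ferritin, stood at 2484 and 2509.8 in control, 2278 and 2265 in KO and 4232 and 4273 in KO + H-151 (0.77 ± 0.07, adjusted p = 1.31e-06). Blvrb, a biliverdin reductase, stood at 64.6 and 64.5 in control, 59.5 and 51.9 in KO and 122 and 123 in KO + H-151 (0.92 ± 0.08, adjusted p = 5.6e-07). The H-151 libraries alone were high, with replicates close together, unlike those of Fabp4. The antioxidant response element core TGACNNNGC was present in 8 of 32 windows (25%), against 13.8% of all.

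Several genes of the largest changes stood in no list. Fgf5, a growth factor, was counted 197 times in the control libraries, 530 times in KO and 2 times with H-151, so that control exceeded KO + H-151 by a scaled ratio of 110 (95% counting limits 30.2 and 918). Pcdh20, a protocadherin, stood at 11.2 and 11.2 in control, 29.1 and 30.7 in KO and 0.457 and 0.25 in KO + H-151 (-3.17 ± 0.16, adjusted p = 1.9e-09). Moxd1, a monooxygenase-like protein, stood at 10.3 and 8.72 in control, 21.4 and 25.6 in KO and 0.849 and 0.563 in KO + H-151 (-2.62 ± 0.18, adjusted p = 2.87e-08). These 3 were above control in KO and almost lost with H-151. Cthrc1, a secreted collagen-repeat protein of activated fibroblasts, stood at 14.3 and 13.8 in control, 13.1 and 14.6 in KO and 2.29 and 2.63 in KO + H-151 (-2.12 ± 0.16, adjusted p = 7.54e-08). Pcsk5, a proprotein convertase, stood at 159 and 132 in control, 98.7 and 112 in KO and 42.8 and 39.6 in KO + H-151 (-1.79 ± 0.09, adjusted p = 2.01e-09). KO was at the control level for Cthrc1 and between the groups for Pcsk5.

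Other rises were shared with KO. Arntl2, a paralogue of the clock factor BMAL1, stood at 0.712 and 0.432 in control, 5.22 and 6.64 in KO and 5.29 and 5.50 in KO + H-151 (2.03 ± 0.20, adjusted p = 1.87e-06). Klhl42, a ubiquitin ligase adaptor, stood at 2.78 and 3.03 in control, 11.1 and 12.3 in KO and 13.7 and 13.6 in KO + H-151 (1.91 ± 0.15, adjusted p = 2.16e-07). The H-151 libraries did not differ from KO past the test for either gene (adjusted p = 0.7 and 0.304). Sparcl1, a matricellular protein, stood at 4.99 and 5.19 in control, 9.84 and 8.35 in KO and 28.9 and 26.9 in KO + H-151 (2.25 ± 0.14, adjusted p = 1.99e-08), above KO as well. Ebi3, a cytokine subunit (1.97 ± 0.22), Fam13a (1.78 ± 0.20) and the small heat shock protein gene Hspb7 (1.69 ± 0.26) were also among the 20 largest rises. Ppp1r3c, a glycogen-targeting phosphatase subunit, stood at 30.7 and 25.2 in control, 1.83 and 2.64 in KO and 22.9 and 21.6 in KO + H-151, and its difference from control did not pass (-0.31 ± 0.16, adjusted p = 0.183). Only the KO libraries were low for this gene.

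Clock genes counted 4 higher (Bhlhe41, Per3, Tef and Dbp†) and 2 lower (Arntl† and Nfil3†) of 18, with 0 lower without control replicate 2, in cultures whose time of harvest within the day the labels do not give.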

How the data were processed

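Per the labels' protocols, QuantSeq 3' libraries were made from total RNA; STAR 2.5.3a, featureCounts, edgeR and mm10 are listed in the submitters' processing notes, while annotation, strand setting and gene filter are not given in the sources used here. The authors deposited a normalised signal: reads divided by an adjusted library size (scaled CPM), where plain CPM had been assumed. Every value is a whole multiple of its library's step (tolerance 0.0006), so whole reads were recovered for 100% of values. Values were transformed to log2(scaled CPM + 1), and genes that reached 1 scaled CPM in 2 or more libraries were tested (13648, leaving out 58) with limma 3.58.1 in R 4.3.3. All 3 groups entered 1 fit with a variance trend (3 residual degrees of freedom, 15.7 after moderation), with Benjamini-Hochberg adjustment over all genes and a threshold of 0.05. On simulated data the fit recovered 76.1%, 85.1% and 98.5% of genes changed 1.5-, 2- and 4-fold, with 8 false calls among 13261 genes. That simulation gave every gene the same small dispersion around its control mean and held no outlying library. Its false calls therefore do not measure the error rate in the real libraries.

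Genes and lists were chosen with earlier results of these data known. Of 39 lists, 36 had at least 5 tested members. Named genes are the 20 largest rises and falls past the threshold with groups apart and 5 scaled CPM or more as the larger group mean, excluding unnamed models, mitochondrial genes and pseudogenes. Added are, per list, the 3 smallest p and the highest mean, and 34 genes chosen by name. Intervals of read ratios (95%) cover counting error only. Promoters are the 250 bases upstream in RefSeq's table for GRCm38.p6, matched by symbol, and positions are GRCm38, the same build as mm10. Alternatives were pseudocounts of 0.25 and 4, other filters and scalings, a fit of both groups alone, no variance trend, a replicate block, edgeR 4.0.16 and DESeq2 1.42.0 on the recovered reads, a 2-fold minimum and each library left out. Some items are not reported here.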

Additional observations from a re-analysis of the deposited data

How the results depend on the processing

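Counts of higher and lower genes stayed within 1.5 times the reported 1570 and 1562 in 33 of 38 values under other settings. The lower count was 937 without the variance trend, and with a 2-fold minimum the counts were 253 and 168. Leaving out 1 library gave 964 to 1445 higher and 936 to 1501 lower genes, both lowest without control replicate 2. edgeR gave 1626 and 1585, DESeq2 1100 and 1215. Deviations of same-numbered libraries correlated at 0.154 between control and KO + H-151 and at -0.068 and -0.128 in the pairs with KO. Whether replicate numbers pair the samples cannot be settled from 2 libraries per group. With the replicate number as a block the counts were 1513 and 1500. The share of higher genes was 50.1%, and 47.5% to 53.3% under the other tests and scalings. Scalings moved the median change of all genes by at most 0.013. Of 1368 list counts under other settings 175 moved by over 1.5 times, with 59 moved values over all counts from the 2-fold minimum and 30 from leaving out the variance trend. Without that trend the lower counts were 19 for mitosis, 8 for DNA replication, 4 for Hippo genes and 3 for integrins and laminins, and the higher counts were 3 for antigen presentation and 3 for p53 targets. DESeq2 gave 5 lower NF-kB targets. Of the named genes, these took the other sign, all of them without passing the threshold in any such setting. Under quantile normalization Actb was at 0.0, Actr2 at 0.0328, Sting1 at -0.0172 and Timp2 at -0.0013. Total-count scaling gave 0.0045 for Actr2, median scaling -0.0024 for Sting1 and DESeq2 -0.0 for Sting1. With 1 library left out the ranges were -0.1811 to 0.044 for Actb, -0.0753 to 0.0564 for Actr2, -0.0093 to 0.1157 for Cd63, -0.0937 to 0.1688 for Cgas and -0.0868 to 0.0912 for Sting1. The cause was not tested. A group left with 1 library was assumed to vary like the others. Depth limits genes with few reads, whose ratios carry wide counting intervals.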
